A study of Rattus norvegicus with 6 samples.

Results

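The miR-200 family consists of microRNAs (miRNAs) that come from 5 hairpin precursors, miR-200a, miR-200b, miR-429, miR-200c and miR-141. The 9 mature miRNAs searched for were both arms of miR-200a, miR-200b, miR-200c and miR-141, and miR-429. They were chosen by name, and 7 of them were among the 867 miRNA sequences in the table. rno-miR-200c-5p and rno-miR-141-5p are not rows of the table used here and are given by sequence only. All 7 had reads, and 6 had a mean of at least 10 reads per library.

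Small RNA was sequenced from exosomes, small membrane vesicles that cells release, in the serum of male Sprague-Dawley rats aged 6 to 8 weeks on a normal diet. NXT-Exo (5 libraries, replicates 1 to 5) came from rats gavaged with 1000 mg/kg/d of Naoxintong Capsule (NXT), a Chinese polyherbal preparation, and Ctl-Exo (1 library, replicate 5) from rats gavaged with 5 mL/kg/d of saline. The titles give 7 days of dosing for every library, whereas in the treatment field NXT-Exo 1 to 5 have 7, 8, 9, 10 and 11 days in that order, and Ctl-Exo 5 has 11. There were 10 rats per group, 110 mL of serum was ultracentrifuged in total, and the sources used here do not tie rats to libraries, so the spread between libraries may be technical. The NXT-Exo libraries held 1168686 to 3781718 reads on listed miRNAs, with the fewest in NXT-Exo 4, and Ctl-Exo 5 held 1890463. Each library was scaled to CPM, the count per 1000000 reads, with edgeR's TMM factors (0.932 to 1.09). With a single Ctl-Exo library, every difference between the groups rests on the spread of the 5 NXT-Exo libraries.

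The miR-200 family is known as a hallmark of epithelial cells. Its 3p miRNAs bind the transcripts of Zeb1 and Zeb2, transcription factors that repress the adhesion gene Cdh1 (E-cadherin), and Zeb1 and Zeb2 in turn repress the family. A miRNA recognises its targets mainly through its seed (bases 2 to 8 from the 5′ end), so members that share a seed share most predicted targets. Each hairpin gives a 5p and a 3p strand, of which usually one is retained in the silencing complex.

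The sequences below show which members share a seed, printed in capitals, 5′ to 3′. They are the 7 listed sequences, written as RNA. The miR-200a-5p, miR-200b-5p, miR-200c-3p and miR-141-3p sequences are identical to the mature sequences of RefSeq (GRCr8).
rno-miR-200b-3p: uAAUACUGccugguaaugaugac
rno-miR-200c-3p: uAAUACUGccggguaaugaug
rno-miR-429: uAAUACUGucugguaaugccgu
rno-miR-200a-3p: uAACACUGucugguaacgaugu
rno-miR-141-3p: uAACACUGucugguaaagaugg
rno-miR-200a-5p: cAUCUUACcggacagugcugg
rno-miR-200b-5p: cAUCUUACugggcagcauugga
The 2 members without a row are shown from RefSeq for comparison.
rno-miR-200c-5p: cGUCUUACccagcaguguuug
rno-miR-141-5p: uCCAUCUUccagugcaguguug
The first 3 share one seed, miR-200a-3p and miR-141-3p share another, and the 5p strands of miR-200a and miR-200b have a seed of their own. Each 3p seed group thus has members from both gene clusters. The neighbours across clusters are close in sequence. Over the 21 bases they share, miR-200b-3p and miR-200c-3p differ by U11G, counted from the 5′ end with the base of miR-200b-3p first. miR-200a-3p and miR-141-3p differ by C17A and U22G, and 20 of their 22 bases are the same. How the counting assigned reads with mismatches to these pairs is not given in the sources used here, so the split between the near-identical members is less certain than their sum.

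The hairpins show how the arms are placed and how the genes are grouped, with the mature strands in capitals. In RefSeq's GRCr8 annotation Mir200b, Mir200a and Mir429 lie on the minus strand of chromosome 5 within 1908 bases, and Mir200c and Mir141 on the minus strand of chromosome 4 within 509 bases. The build named in the submitters' processing notes is Rnor 6.0, and all coordinates here are those of GRCr8.
Mir200b, chr5:171931495-171931589: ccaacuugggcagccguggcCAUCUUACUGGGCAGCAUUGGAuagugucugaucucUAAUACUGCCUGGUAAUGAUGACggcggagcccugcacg
Mir200a, chr5:171930717-171930805: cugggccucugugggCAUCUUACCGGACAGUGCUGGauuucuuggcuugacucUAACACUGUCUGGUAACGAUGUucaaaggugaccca
Mir200c, chr4:159209965-159210033: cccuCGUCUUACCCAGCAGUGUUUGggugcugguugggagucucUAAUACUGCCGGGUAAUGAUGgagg

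The family was a minor part of the exosomal miRNAs and was dominated by a single member. Its 7 miRNAs took 507 to 1277 reads in the NXT-Exo libraries and 478 in Ctl-Exo 5, or 0.0254% to 0.0434% of the listed reads in NXT-Exo, against 0.0253% in Ctl-Exo 5. The level of 1 read was 0.261 to 0.782 CPM in NXT-Exo, against 0.544 CPM in Ctl-Exo 5. For every value below, 3 reads were taken as the limit that a count of 0 allows, which is 1.63 CPM in Ctl-Exo 5, and intervals and floors cover counting error only. Levels of different miRNAs are compared per read, without division by length. Whether different sequences were captured equally well was not tested, so these comparisons are of reads.

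miR-200a-3p was the most abundant member in all 6 libraries. It had 644, 659, 412, 348 and 925 reads in NXT-Exo 1 to 5 and 334 in Ctl-Exo 5. These correspond to 215, 198, 185, 272 and 241 CPM in NXT-Exo, against 182 CPM in Ctl-Exo 5. Ctl-Exo 5 was thus the lowest, just under NXT-Exo 3, and NXT-Exo 4 the highest. It ranked from 119th to 138th among the 867 miRNAs and supplied 65.7% to 72.4% of the family's reads in NXT-Exo, against 69.9% in Ctl-Exo 5 (95% Wilson interval 65.6% to 73.8%). Its share in Ctl-Exo 5 lay inside the range of NXT-Exo.

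miR-200c-3p and miR-200b-3p, the closest pair in sequence, followed. miR-200c-3p was 32.3, 33.7, 38.7, 43.8 and 38.1 CPM in NXT-Exo 1 to 5 and 24.0 CPM in Ctl-Exo 5, below all NXT-Exo libraries. miR-200b-3p was 46.3, 15.7, 19.8, 53.9 and 23.0 CPM in NXT-Exo 1 to 5 and 28.9 CPM in Ctl-Exo 5. It was high in NXT-Exo 1 and 4 and lower in the other 3, with Ctl-Exo 5 between them.

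miR-429, from the chromosome 5 cluster, was 10.7, 18.4, 10.3, 6.25 and 14.6 CPM in NXT-Exo 1 to 5 and 16.9 CPM in Ctl-Exo 5. Only NXT-Exo 2 was above Ctl-Exo 5, and NXT-Exo 4 was the lowest. miR-141-3p was 10.0, 11.1, 7.64, 7.82 and 10.7 CPM in NXT-Exo, against 7.08 CPM in Ctl-Exo 5, the lowest of the 6 by a margin of about 1 read.

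The 5p strands had the lowest mean levels, although miR-200b-5p had at least as many reads as miR-141-3p in NXT-Exo 1 to 3. miR-200b-5p had 30, 39, 20, 9 and 19 reads in NXT-Exo 1 to 5 and 0 reads in Ctl-Exo 5. miR-200a-5p had 8, 25, 3, 7 and 2 reads in NXT-Exo, with 3 in Ctl-Exo 5, so most of its values were close to the floor.

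**Figure D1:**
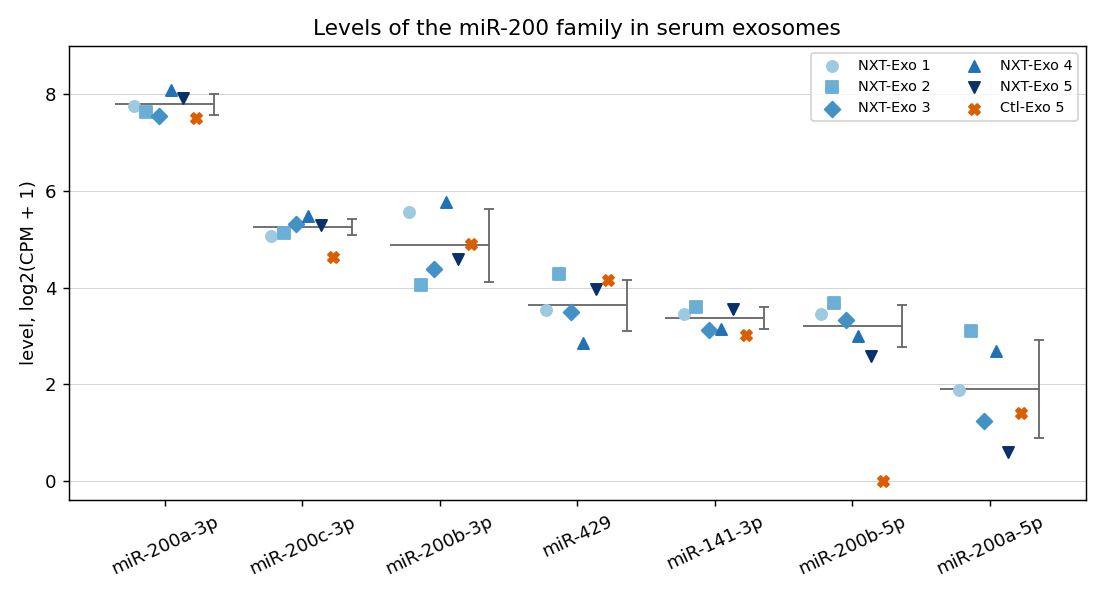
Level of each member on the log2(CPM + 1) scale (vertical axis) in the 5 NXT-Exo libraries (blue) and Ctl-Exo 5 (orange cross), ordered by mean level. Horizontal lines and bars give the mean and SD of the log2 values of NXT-Exo (n = 5). Ctl-Exo 5 is the lowest point for miR-200a-3p, miR-200c-3p, miR-141-3p and miR-200b-5p, the last at 0 reads.

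The order of the mean levels was miR-200a-3p, miR-200c-3p, miR-200b-3p, miR-429, miR-141-3p, miR-200b-5p and miR-200a-5p. Neighbours were compared within each library by the log2 ratio of their reads + 0.5 and an exact sign-flip permutation test (two-sided). miR-200a-3p had 6.15 times the reads of miR-200c-3p and was higher in 6 of 6 libraries (exact permutation p = 0.03125, the smallest that 6 libraries allow, adjusted p = 0.1875 over the 6 neighbour pairs). None of the 6 pairs passed after adjustment, and for the other 5 the raw p was 0.0625 to 0.375. miR-200c-3p and miR-200b-3p exchanged places, with miR-200c-3p higher in 3 of 6 libraries and a mean log2 ratio of 0.28 ± 0.72 (SD, n = 6). miR-429 and miR-141-3p differed by 0.43 ± 0.52 (SD, n = 6), with miR-429 higher in 5 of 6 libraries.

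Members differed widely in how steady they were between the NXT-Exo libraries. The coefficient of variation of the CPM was 12.1% for miR-200c-3p, 15.6% for miR-200a-3p and 17.2% for miR-141-3p, but 30.8% for miR-200b-5p, 38.2% for miR-429, 54.2% for miR-200b-3p and 83.5% for miR-200a-5p. The median over the 6 members with a mean of at least 10 reads was 24.0%, and over all 467 miRNAs with such a mean it was 22.1%. Set against counting error, the chi-square of the reads per degree of freedom was 0.618 for miR-141-3p and 1.13 for miR-200c-3p, close to what counting alone gives. It was 2.72 for miR-200b-5p, 3.71 for miR-429, 7.94 for miR-200a-5p, 10.8 for miR-200a-3p and 22.8 for miR-200b-3p. miR-200a-3p, with the most reads, thus exceeded its counting error despite a low coefficient of variation, and miR-200b-3p exceeded it most.

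The study sequenced both kinds of exosomes to ask whether miRNAs take part in the action of NXT-Exo on injured endothelial cells, and the comparison here addresses only which miRNAs differed between them. For the family as a whole, the summed level was 325 ± 46.8 CPM (SD, n = 5) in NXT-Exo, with values of 327, 297, 272, 396 and 333 CPM, and 260 CPM in Ctl-Exo 5. Each of the 5 NXT-Exo values exceeded it, and the difference was 0.32 on the log2 scale, against an SD of 0.20 between the NXT-Exo libraries. The gap between Ctl-Exo 5 and NXT-Exo 3 was smaller than the gaps between most NXT-Exo libraries. In these bulk samples, fewer vesicles from epithelial cells and less of the miRNA per vesicle cannot be told apart.

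Counts were tested across all 865 miRNAs with reads by edgeR's quasi-likelihood test with Benjamini-Hochberg adjustment, in which the lone Ctl-Exo library is assumed to vary like NXT-Exo. None of the 7 members passed an adjusted p of 0.05, and 0% of the 865 miRNAs did. At an unadjusted p under 0.05 there were 46 miRNAs (5.32%), 1 of them a member, and DESeq2's Wald test also called 0, with 33 at an unadjusted p under 0.05. By position alone, Ctl-Exo 5 was the lowest of the 6 libraries for 4 of the 7 members and for 15.0% of the 865 miRNAs. It lay above all 5 for 0 members, against 15.3% of all miRNAs. For 3 members, miR-200b-3p, miR-429 and miR-200a-5p, it fell within the NXT-Exo range.

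miR-200b-5p, the 5p strand of the miR-200b hairpin, was the member with the largest difference. Its level was 8.55 ± 2.63 CPM (SD, n = 5) in NXT-Exo, with 10.0, 11.7, 8.99, 7.04 and 4.96 CPM in NXT-Exo 1 to 5. Each NXT-Exo value exceeded the 1.63 CPM that 0 reads allow in Ctl-Exo 5. At the lowest NXT-Exo level Ctl-Exo 5 would have had 9.10 reads, and at the mean level 15.7 reads. Taken against the floor of 3 reads in Ctl-Exo 5, which covers counting error only, miR-200b-5p was at least 5.23-fold higher in the mean of NXT-Exo. By p it ranked first of all 865 miRNAs in edgeR's test, yet its adjusted p was 0.301. Over 9 alternative fits, edgeR and DESeq2 gave adjusted p-values of 0.128 to 0.982. Against a change of at least 2-fold with Ctl-Exo 5 below all NXT-Exo libraries, which 5.32% of all miRNAs met, it was the only member. In turn, 0 members were 2-fold lower, against 6.13% of all miRNAs. Where the mean had to reach 10 reads, 22 of 467 miRNAs were higher and 8 were lower by this rule. The difference of miR-200b-5p was known from earlier results of these data, so its direction is not independent evidence. The value rests on 0 reads in 1 library.

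The remaining members had smaller differences. For miR-200c-3p, NXT-Exo had 37.3 ± 4.52 CPM (SD, n = 5) while Ctl-Exo 5 had 24.0 CPM (17.8 to 32.2 CPM as the 95% Wilson interval), so all 5 NXT-Exo libraries lay above the interval, NXT-Exo 1 by a narrow margin. Its edgeR log2 fold change was 0.63 ± 0.41 (SE), with an adjusted p of 0.815. For miR-200a-3p, the values of 222 ± 34.8 CPM (SD, n = 5) and 182 CPM (interval 163 to 202 CPM) gave an edgeR log2 fold change of 0.29 ± 0.26 (SE, adjusted p = 0.815). Here NXT-Exo 2 and 3 lay inside the interval of Ctl-Exo 5. miR-141-3p was 9.46 ± 1.63 CPM (SD, n = 5) against 7.08 CPM (interval 4.14 to 12.1 CPM), and all 5 NXT-Exo libraries were inside that interval. No difference in miR-141-3p was detectable at this depth.

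miR-429 had a negative difference, with 12.0 ± 4.61 CPM (SD, n = 5) in NXT-Exo, against 16.9 CPM in Ctl-Exo 5, an edgeR log2 fold change of -0.45 ± 0.57 (SE, adjusted p = 0.815). For miR-200b-3p, 31.7 ± 17.2 CPM (SD, n = 5) stood against 28.9 CPM, and 2 of 5 NXT-Exo libraries were above Ctl-Exo 5. Its log2 difference of 0.13 changed sign to -0.32 when NXT-Exo was summarised by its median, and was -0.04 without NXT-Exo 1 and -0.14 without NXT-Exo 4. For miR-200a-5p, at 3.51 ± 2.93 CPM (SD, n = 5) against 1.63 CPM from 3 reads, the edgeR log2 fold change was 1.06 ± 1.46 (SE). With an SE larger than the value, no difference in miR-200a-5p was detectable at this depth. On the log2(CPM + 1) scale the median difference was 0.37 over the 7 members and 0.16 over the 865 miRNAs. Where the mean had to reach 10 reads, it was 0.33 over 6 members and 0.03 over 467 miRNAs.

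The members were next compared by gene cluster. The chromosome 5 cluster (miR-200b, miR-200a and miR-429, 5 members) had 853, 836, 502, 441 and 1090 reads in NXT-Exo 1 to 5 and 421 in Ctl-Exo 5. The chromosome 4 cluster (miR-200c and miR-141, 2 members) had 127, 149, 103, 66 and 187 reads in NXT-Exo, against 57 in Ctl-Exo 5. The chromosome 5 cluster was higher in 6 of 6 libraries, by 6.10-fold on average, with a mean log2 ratio of 2.61 ± 0.22 (SD, n = 6). The exact sign-flip permutation test gave p = 0.03125, the smallest possible, and 0.03125 after adjustment over the 4 ratios tested within libraries. Each of these 4 ratios had the same sign in all 6 libraries, which always gives this p. It describes the reads of these libraries, not levels in rats. The cluster difference rested on miR-200a-3p. Without it, the mean log2 ratio was 0.28 ± 0.39 (SD, n = 6), with the chromosome 5 cluster higher in 4 of 6 libraries (exact permutation p = 0.15625, adjusted p = 0.15625), an alternative chosen after the data were seen.

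The cluster ratio was slightly higher in Ctl-Exo 5 than in NXT-Exo. It was 7.33-fold in Ctl-Exo 5 and 4.86-fold to 6.69-fold in NXT-Exo. On the log2 scale these are 2.87 and 2.28 to 2.74, and the counting error of the value of Ctl-Exo 5 was 0.20, larger than its distance to the highest NXT-Exo library. The summed level of the chromosome 4 cluster was 42.3 to 51.6 CPM in NXT-Exo, against 31.0 CPM in Ctl-Exo 5, and that of the chromosome 5 cluster 226 to 345 CPM and 229 CPM. Ctl-Exo 5 was thus below all NXT-Exo libraries for the chromosome 4 cluster, as it was for 15.0% of all miRNAs taken singly. For the chromosome 5 cluster it lay just above the lowest NXT-Exo value.

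Grouped by seed, the order was the same in every library. The pair miR-200a-3p and miR-141-3p had 2.84 times the reads of the 3 members with the other 3p seed, with a mean log2 ratio of the latter to the former of -1.51 ± 0.15 (SD, n = 6). All 6 libraries had this sign (exact permutation p = 0.03125, adjusted p = 0.03125 over 4 ratios). Ctl-Exo 5 at -1.44 lay inside the NXT-Exo range of -1.73 to -1.33. Without miR-200a-3p the ratio turned, and the 3 members had 8.56 times the reads of miR-141-3p alone, in 6 of 6 libraries (exact permutation p = 0.03125, adjusted p = 0.0417), also an alternative chosen after the data were seen. With 10 to 41 reads of miR-141-3p, against 128 to 290 of the 3 members, its sign was evident before the test. The share of the seed shown for miR-200a-3p was 68.8% to 75.6% of the family's reads in NXT-Exo, against 72.6% in Ctl-Exo 5.

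Of the arms, the 3p strand prevailed in both hairpins that could be compared. For miR-200a, 3p reads outnumbered 5p reads 80.5, 26.4, 137, 49.7 and 462.5 to 1 in NXT-Exo 1 to 5 and 111 to 1 in Ctl-Exo 5. The mean log2 ratio was 6.41 ± 1.30 (SD, n = 6), and 6 of 6 libraries had more 3p reads (exact permutation p = 0.03125, adjusted p = 0.03125). miR-200a-5p had 2 to 25 reads in NXT-Exo, and this ratio rests on them.

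In miR-200b the strands were closer. The ratio of 3p to 5p reads was 4.63, 1.33, 2.20, 7.67 and 4.63 in NXT-Exo 1 to 5. In Ctl-Exo 5, with 53 reads of miR-200b-3p and 0 of miR-200b-5p, it was at least 17.7 when 5p is set to the floor of 3 reads. The 3p strand was higher in 6 of 6 libraries (mean log2 ratio 2.59 ± 2.22, SD, n = 6, exact permutation p = 0.03125, adjusted p = 0.03125). Ctl-Exo 5 raised this mean, which was 1.76 ± 0.98 (SD, n = 5) in NXT-Exo alone. Ctl-Exo 5 was above the range of NXT-Exo for miR-200b and within it for miR-200a. The separate position of Ctl-Exo 5 came with the 5p strand, as its miR-200b-3p lay among the NXT-Exo values.

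The 3p members together made up 93.5% to 98.4% of the family's reads in NXT-Exo, against 99.4% in Ctl-Exo 5. For miR-200c and miR-141 only the 3p strand has a row, and the 5p strand was not analysed here.

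**Figure D2:**
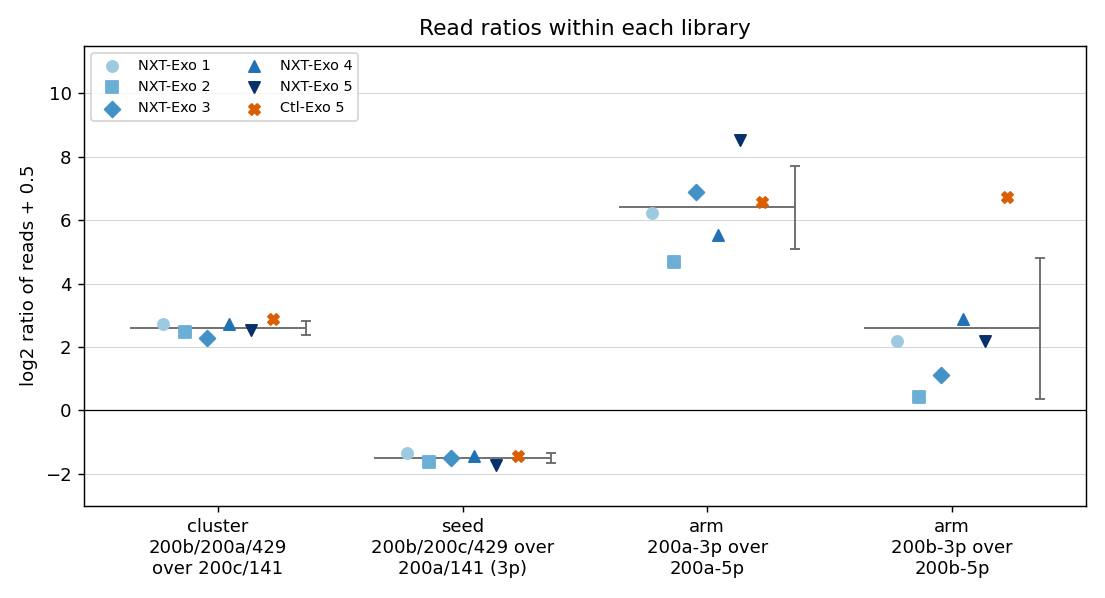
Log2 ratio of reads + 0.5 within each library (vertical axis) for the gene clusters, the 3p seed groups and the arms of miR-200a and miR-200b, in NXT-Exo 1 to 5 (blue) and Ctl-Exo 5 (orange cross). Horizontal lines and bars give the mean and SD over 6 libraries. All 6 libraries are on one side of 0 for each ratio, and the point of Ctl-Exo 5 for miR-200b is set by 0 reads of the 5p strand.

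Members of one cluster are made from neighbouring hairpins, so the steadiness of their ratio was compared with that of pairs from different clusters. Among the 10 pairs of 3p members, the SD of the log2 ratio over 6 libraries was 0.35 to 1.16 for the 4 pairs within a cluster (median 0.66) and 0.22 to 0.82 for the 6 pairs between clusters (median 0.62). These values are a description, since the pairs share members and libraries. The steadiest pair was miR-200a-3p and miR-200c-3p, from different clusters, with an SD of 0.22, where counting error alone gives 0.18. miR-200c-3p and miR-141-3p, neighbours on chromosome 4, had an SD of 0.35, at their counting error of 0.37. The least steady pair was miR-200b-3p and miR-429, both of the chromosome 5 cluster. For 1 read of miR-429 there were 4.34, 0.852, 1.91, 8.63 and 1.57 reads of miR-200b-3p in NXT-Exo 1 to 5 and 1.71 in Ctl-Exo 5. The SD of this log2 ratio was 1.16, against 0.35 from counting.

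**Figure D3:**
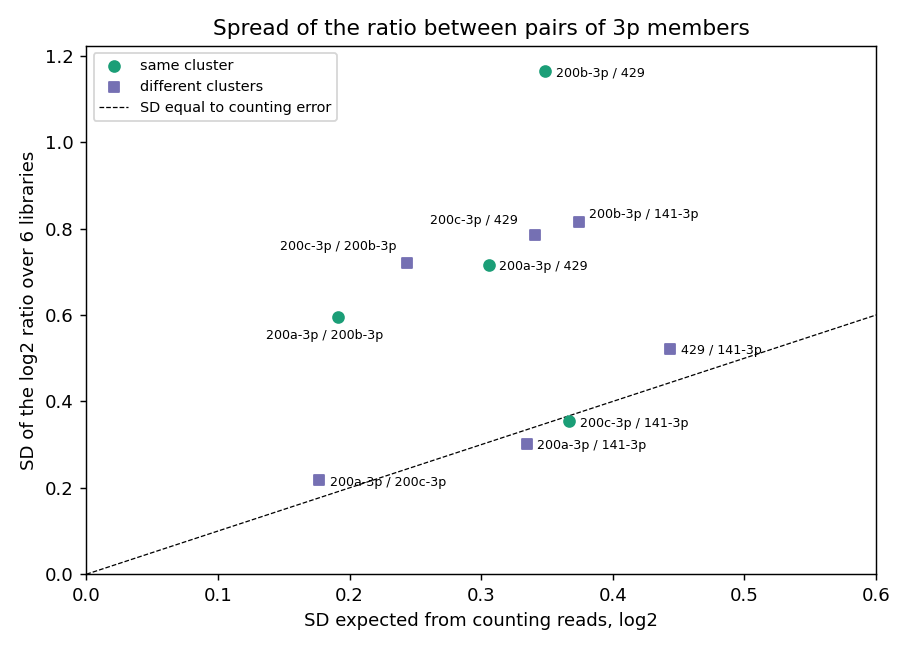
SD over 6 libraries of the log2 ratio between 2 members (vertical axis) against the SD that counting their reads gives (horizontal axis), for pairs of 3p members of the same cluster (green circles) or of different clusters (purple squares). The dashed line marks equality. Pairs with miR-200b-3p lie well above the line, miR-200b-3p and miR-429 at 1.16 against 0.35. So do miR-429 with miR-200a-3p (0.72 against 0.31) and with miR-200c-3p (0.79 against 0.34). Pairs among miR-200a-3p, miR-200c-3p and miR-141-3p lie near the line.

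A longer sequence listed without the rat prefix, miR-200-y, carries the whole of miR-200c-3p and is shown because its reads could belong to the same hairpin. Its bases beyond miR-200c-3p are in capitals.
miR-200-y: uaauacugccggguaaugaugGAA
It has 24 bases, 23 of which are identical to the rat Mir200c hairpin, the exception being G24A, with the hairpin's base first and positions counted from the 5′ end of miR-200-y. It had 24, 21, 11, 10 and 29 reads in NXT-Exo 1 to 5 and 9 in Ctl-Exo 5. This was 11.3% to 19.8% of the reads of both sequences in NXT-Exo, against 17.0% in Ctl-Exo 5 (95% Wilson interval 9.20% to 29.2%). Its share in Ctl-Exo 5 was among the NXT-Exo values. Adding its reads to miR-200c-3p, an alternative chosen after the data were seen, changed the cluster ratio from 2.61 to 2.41 on the log2 scale. A predicted miRNA with the seed of miR-200a-3p had 87 reads over the 6 libraries.

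Since the family is known as epithelial, other miRNAs known for epithelia were examined, taken from a list of 12 names of which 10 were in the table (13 miRNAs with reads). Their summed level was 1489 to 1700 CPM in NXT-Exo, against 1087 CPM in Ctl-Exo 5, so Ctl-Exo 5 was the lowest of the 6, as for the miR-200 family. Of the 13, Ctl-Exo 5 was below all NXT-Exo libraries for 5 and above all for 0, beside 15.0% and 15.3% of all miRNAs. None passed edgeR's adjusted p of 0.05. The median log2 difference was 0.28 over the 13, beside 0.16 over the 865 miRNAs.

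The most abundant of these was miR-375-3p, known for islet and neuroendocrine cells, at 824 ± 66.5 CPM (SD, n = 5) in NXT-Exo, against 516 CPM in Ctl-Exo 5 (log2 difference 0.67). miR-182 (335 ± 26.7 CPM, SD, n = 5, against 234 CPM) and miR-183-5p (207 ± 37.2 CPM, SD, n = 5, against 146 CPM) come from one cluster. miR-203a-3p, a miRNA of skin, was 113 ± 15.9 CPM (SD, n = 5) against 82.2 CPM. In each of these 4, Ctl-Exo 5 was below all NXT-Exo libraries. miR-205, a miRNA of stratified epithelia, was 67.6 ± 28.5 CPM (SD, n = 5) against 65.9 CPM, with overlapping groups.

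**Figure D4:**
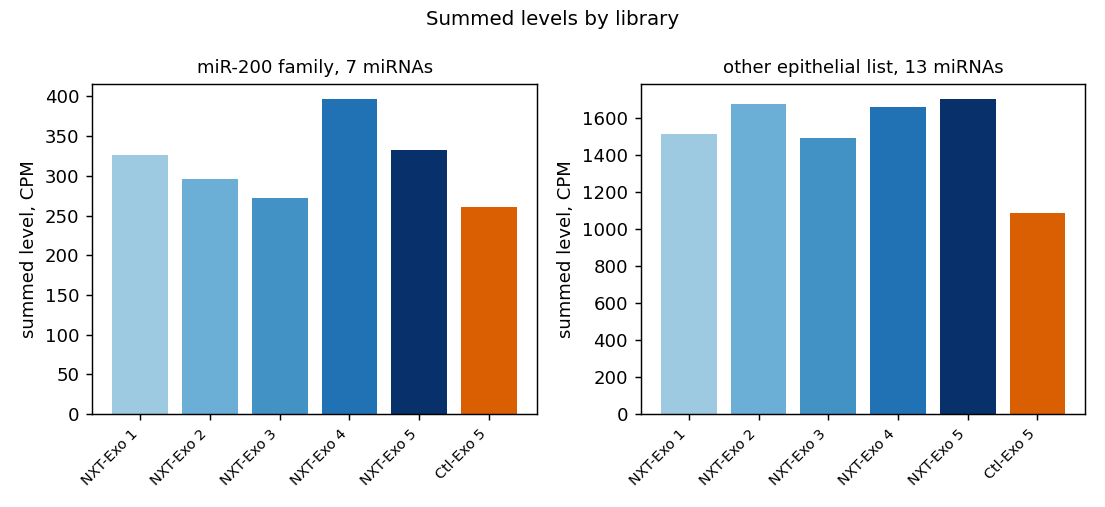
Summed level in CPM (vertical axes, each starting at 0) of the 7 members of the miR-200 family (left) and of the 13 other miRNAs of the epithelial list (right) in each library, with NXT-Exo in blue and Ctl-Exo 5 in orange. Ctl-Exo 5 is the lowest library in both, at 260 and 1087 CPM.

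For other cell types that serum exosomes can come from, the red blood cell list (5 miRNAs, led by miR-486) summed to 157726 to 260276 CPM in NXT-Exo, against 210422 CPM in Ctl-Exo 5, and the list for platelets, endothelium and white blood cells (9 miRNAs, led by miR-142-5p) to 22203 to 26116 CPM and 27080 CPM. The hepatocyte list (4 miRNAs, led by miR-122-5p) summed to 3308 to 17431 CPM and 2206 CPM. By sum, Ctl-Exo 5 was thus within the range for the first, the highest library for the second and the lowest for the third. Taken singly, Ctl-Exo 5 was below all NXT-Exo libraries for 0 of 5, 1 of 9 and 1 of 4 miRNAs in that order. It was above all for 1, 2 and 0, beside 15.0% (below) and 15.3% (above) of all miRNAs. The hepatocyte sum was mostly miR-122-5p (6838 ± 6036 CPM, SD, n = 5, against 2195 CPM). For miR-122-3p, miR-802-5p and miR-802-3p, Ctl-Exo 5 was within the NXT-Exo range. No list had a miRNA past an adjusted p of 0.05 in edgeR's test. The part of these lists in the values of the miR-200 family was not tested.

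Outside the family, the miRNAs whose log2(CPM + 1) followed the family's summed level most closely over the 6 libraries were miR-5132-5p, miR-99b-5p and miR-99b-3p. Pearson's r was 0.93, 0.92 and 0.90 among 461 miRNAs compared, 4 of which reached 0.9. These values are a description over libraries that share their scaling.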

How the data were processed

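Per the labels, libraries were made from serum exosomes with a TruSeq small RNA kit. ACGT101-miR took out dimers of adapters, low-complexity reads, repeats and other RNA classes, and the deposited counts are reads for each miRNA. The aligner and miRNA database release are not given in the sources used here. The deposited TPM values are the count times a constant per library, without division by length, with 0.01 for 0 reads, and the listed counts were 86.0% to 88.3% of the totals behind them. The table has 8 columns of 4 other Ctl-Exo names, which were not used here.

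Groups were taken from the sample titles. CPM were calculated with TMM factors. NXT-Exo was compared with Ctl-Exo 5 by edgeR 4.0.16 (glmQLFit, glmQLFTest, R 4.3.3) over all 865 miRNAs with at least 1 read, with DESeq2 1.42.0 as an alternative, and described by the difference between the groups in log2(CPM + 1), NXT-Exo entering as its mean CPM. Ratios within libraries used reads + 0.5 and an exact sign-flip permutation test (two-sided) over 6 libraries (Python 3.11.15, scipy 1.17.1, and matplotlib 3.10.9 for plots). Adjustment was made over 4 ratios, since miR-200c-5p and miR-141-5p have no row and gave no arm ratio. The edgeR and sign-flip tests were tested on simulated data, and the DESeq2 alternative was not. The edgeR simulation gave both groups the same spread, so it could not check whether the lone Ctl-Exo library varies like NXT-Exo.

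All members, the 5 most abundant miRNAs of the epithelial list, the most abundant of each other list and the 3 most like the family total were named, with miR-200-y and a predicted miRNA added after the table was read. The members and lists were chosen with earlier results of these data known. Every 2 libraries differed beyond counting noise (chi-square per degree of freedom 38.1 to 272.3), and each is 1 sample.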

Additional observations from a re-analysis of the deposited data

How the results depend on the processing

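The alternatives were other pseudocounts, DESeq2 size factors, the listed total, the deposited TPM, the median of NXT-Exo, a minimum mean of 10 reads, DESeq2's test, other sets of members, and NXT-Exo without 1 of its libraries. No paired analysis was possible because NXT-Exo and Ctl-Exo have only replicate number 5 in common among the libraries used here, the columns of 4 other Ctl-Exo names being left out. Ctl-Exo 5 could not be left out, since it is the only Ctl-Exo library used here.

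The number of miRNAs called by edgeR (0) was 0 to 1 when single NXT-Exo libraries were omitted, the 1 being miR-122-5p without NXT-Exo 2, and no member was called in the main or any of the 9 alternative fits that tested it (miR-200a-5p was not in the one requiring a mean of 10 reads). The number of miRNAs 2-fold apart with Ctl-Exo 5 outside the NXT-Exo range (99) fell to 4 with a pseudocount of 10 CPM and to 30 where the mean had to reach 10 reads. In the NXT-Exo libraries alone, where the exact permutation test cannot go below 0.0625, the mean log2 ratio was 2.56 for the clusters, -1.52 for the seeds, 6.38 for the arms of miR-200a and 1.76 for those of miR-200b. Leaving out one NXT-Exo library, with the same limit on p, gave 2.58 to 2.67, -1.54 to -1.46, 5.99 to 6.75 and 2.53 to 3.02. Without miR-200a-3p the cluster ratio was 0.28 and the seed ratio 3.10, of opposite sign, because miR-200a-3p holds most reads of its seed. The other alternatives kept the direction and the side of the threshold of the 4 ratios. The difference of the family total (0.32) was 0.24 to 0.39 in all alternatives run. For single members, log2 differences moved by less than the SD of NXT-Exo, except that of miR-200b-5p (3.25), which was 6.43 with a pseudocount of 0.1 CPM and 0.89 with 10 CPM, as 0 reads in Ctl-Exo 5 make it depend on the pseudocount. At 0.544 CPM per read, Ctl-Exo 5 limits miR-141-3p and both 5p strands most.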
